A study of Oryza sativa with 6 samples.

Results

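A total of 138 genes were counted in the roots of the rice cultivar HHZ and hardly or not at all in the roots of 9311. They were chosen by their raw read counts among the 36844 genes of the count table, as those with no more than 3 counts in any of the 3 libraries of 9311 and 30 or more in each of the 3 libraries of HHZ. Os01g0307500 also met these limits and is not among the 138 genes. The difference between the cultivars at these genes is therefore how they were found, and it is described here and not taken as a result of a test.

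Both groups were roots of plants grown in hydroponic solution to 50 days after germination (DAG), kept for 2 days in solution free of NH4NO3 and returned for 3 h to solution with 1 mM NH4NO3. The first group was the cultivar 9311 and the second the cultivar HHZ (Huanghuazhan), with 3 libraries each and no other difference in the labels. The labels do not say how many plants went into a library, so p-values measure only the spread between these libraries, which may be partly technical. Total counts lay between 16622441 and 22646162 per library. HHZ replicates 1 and 2 were the closest pair of libraries (chi-square of their counts per degree of freedom 22.3), while HHZ replicate 3 stood apart from them (98.6 and 84.5), against 28.97 to 43.8 among the 9311 libraries. Without HHZ replicate 3, the same limits gave 151 genes, the 138 included.

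Cultivars of rice differ in the genes that their genomes carry as well as in how strongly shared genes are transcribed. Both 9311 and HHZ are indica cultivars, whereas the reference IRGSP-1.0, to which the reads of both were aligned, is the genome of the japonica cultivar Nipponbare. In plant genomes, genes that come and go between cultivars often lie in clusters of related copies, and families such as disease resistance genes are known for it. A gene of the reference receives few reads from a cultivar when the gene is missing there, when its sequence has diverged too far for reads to align, or when it is not transcribed in the sampled roots. These cannot be told apart from read counts. Counts of overlapping, antisense and near-identical genes are uncertain as well, since the strand setting of the counting is not given in the sources used here.

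The genes are named by their identifiers, in which the digits after Os give the chromosome and the last digits ascend along it. Of the 36844 identifiers, 1 could be matched to the gene table used here, and it was not one of the 138 genes, so no gene symbol or function is given. For the same reason the root label could not be set against marker genes of the root or the shoot.

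The 138 genes ranged widely in HHZ. Levels are in CPM, a gene's counts relative to the TMM-scaled size of its library, which takes no account of gene length and so does not rank genes by transcript number. The median over the genes of the mean HHZ value was 7.04 CPM, from 1.73 to 96.1 CPM, against a median of 20.2 CPM over the 18664 genes reaching 30 counts throughout HHZ. Of the 138 genes, 54 were under 5 CPM, 32 between 5 and 10, 30 between 10 and 20, 16 between 20 and 50 and 6 above 50 CPM. The genes were thus mostly of low count, with a small number of strongly counted ones. The 128 genes counted in 9311 only, by the mirrored limits, had a median of 8.22 CPM in 9311, from 1.91 to 108 CPM. Together the 138 genes held 39509, 40134 and 35878 counts in HHZ replicates 1, 2 and 3, which is 0.158% to 0.187% of a library. In 9311 replicates 1, 2 and 3 they held 49, 31 and 27 counts.

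The gene with the most counts was Os08g0263300 on chromosome 8, with 2510, 1998 and 2035 counts in HHZ replicates 1, 2 and 3 and 0, 0 and 1 in the 9311 libraries. Its level in HHZ was 96.1 ± 12.5 CPM (SD, n = 3). The ratio of its summed counts, corrected for library size, was 5466 (exact 95% interval 981 to 215932, counting error only). The ratio rests on 1 count in 9311, and the interval does not allow for the choice of the gene by these same counts. Os08g0263300 stood apart from the rest, the next gene being at 56.1 CPM. That gene, Os01g0942900 on chromosome 1, had 1305, 1322 and 1193 counts in HHZ and 0 in every 9311 library, and its level of 56.1 ± 1.05 CPM (SD, n = 3) was among the steadiest values of the 138 genes. Os11g0311100 on chromosome 11 had 1228, 1436 and 1126 counts in HHZ and 2, 0 and 0 in 9311. For both, HHZ replicate 3 had the fewest counts of the HHZ libraries.

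Os11g0575600, also on chromosome 11, had 1935, 1176 and 691 counts in HHZ and 0 in every 9311 library. Os09g0244600 had 949, 1073 and 1572 counts in HHZ and 0 in 9311. These 2 genes had about the same mean in HHZ (55.5 ± 26.8 and 53.2 ± 16.8 CPM, SD, n = 3), but HHZ replicate 3 was the lowest library for the first and the highest for the second. Os11g0206000 had 1230, 1321 and 958 counts in HHZ and 1, 0 and 0 in 9311, and Os04g0442800 had 1118, 1083 and 1145 against 2, 0 and 0. Os03g0448500 had 1053, 1179 and 856 counts in HHZ and 0 in 9311. HHZ replicate 3 had the fewest counts at Os11g0206000 and Os03g0448500 and the most at Os04g0442800.

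Of the next genes by counts, Os08g0182400 had 901, 870 and 805 counts in HHZ and was seen in all 9311 libraries, with 2, 1 and 1 counts. Os06g0347966 had 854, 921 and 724 counts, Os01g0944000 839, 904 and 611, Os10g0330825 808, 825 and 573, and Os08g0161401 655, 740 and 754 in HHZ replicates 1, 2 and 3, and all 4 were at 0 in every 9311 library. Os03g0378000 (662, 743 and 544 counts in HHZ), Os12g0539750 (675, 695 and 567) and Os10g0450400 (542, 454 and 1127) each had 1 count in 9311 replicate 1 and 0 in the other 9311 libraries. Os01g0584300, the last of the 20 genes with the most counts, had 510, 485 and 522 in HHZ and 0 in 9311. Of the 20, Os02g0590400, Os05g0128900 and Os04g0369000 varied most within HHZ and are described with the spread between libraries. The 20 genes held 49.4% of all HHZ counts of the 138 genes, and 11 of them were at 0 in every 9311 library.

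**Figure D1:**
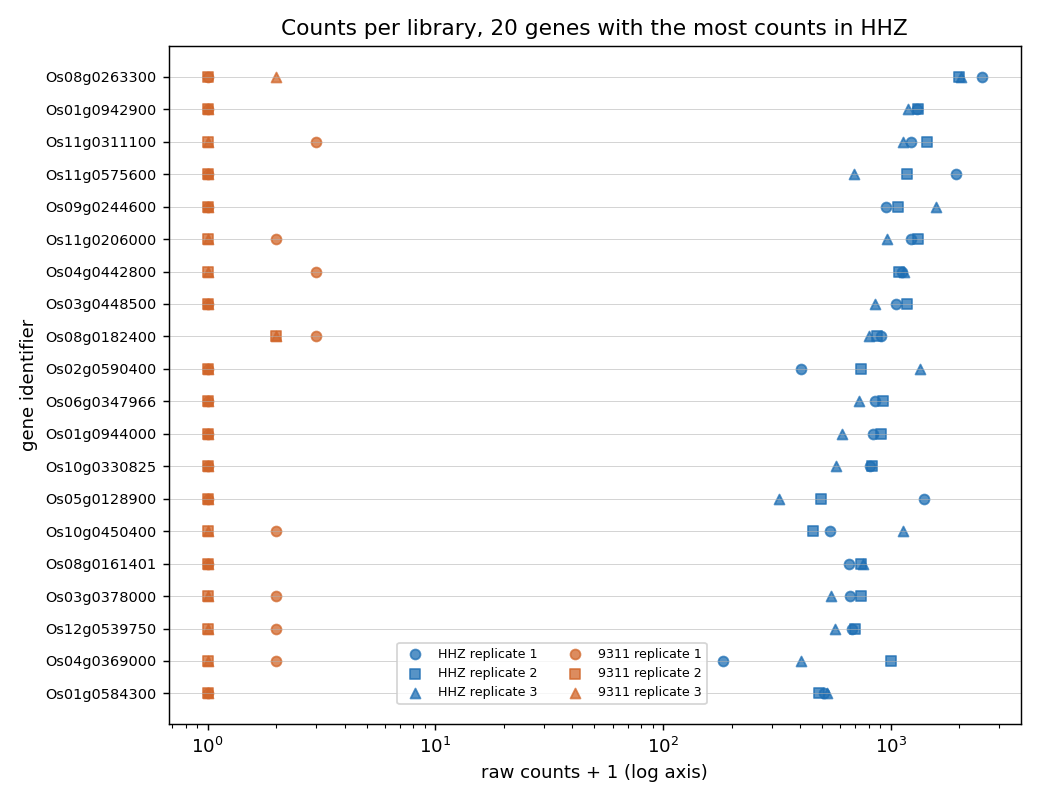
Raw counts plus 1 on a log axis for the 20 genes with the highest mean CPM in HHZ (vertical axis), 1 point per library, with HHZ in blue and 9311 in orange and the replicate given by the marker. The 9311 points lie at 0 to 2 counts, and the HHZ points lie between 183 and 2510 counts.

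Over all 138 genes, 100 were at 0 in every 9311 library and 38 had at least 1 count. For the 100 genes at 0, the HHZ mean was 9.83 to 320 times the value of 3 counts in the 9311 library with the smallest scaled size (0.175 CPM). These folds were taken as lower bounds of the ratio of HHZ to 9311, and their median was 36.0. Os01g0942900 had the highest bound. Of the 414 values in 9311, 350 were 0, and the sum over all of them was 107 counts against 115521 in HHZ. The counts that were seen did not come from 1 library, since 30 genes had a count in 9311 replicate 1 and 17 each in replicates 2 and 3. Of the 38 genes, 15 had a single count in 9311, and 9 had a count in all of its libraries. The largest sum was 7 counts, found for Os01g0295900, Os05g0215500, Os11g0466966 and Os11g0677000.

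Os01g0295900 had 77, 79 and 46 counts in HHZ and 3, 1 and 3 in 9311. Os05g0215500 had 40, 39 and 39 counts in HHZ and 3, 3 and 1 in 9311, and Os11g0466966 had 43, 50 and 63 against 2, 2 and 3. These genes were low in HHZ too, so that the separation of the cultivars was narrower there than at the genes with many counts. Genes just outside the upper limit included Os01g0553600, with 473, 465 and 341 counts in HHZ and 4, 0 and 0 in 9311, and Os07g0648000, with 415, 321 and 240 against 1, 4 and 2. There were 32 genes reaching 30 counts throughout HHZ and a highest 9311 count of 4 to 10.

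At the lower limit, Os11g0616100 was just inside, with 44, 32 and 79 counts in HHZ and 1, 0 and 0 in 9311, as was Os09g0506700, with 35, 50 and 33 against 0. Just outside were Os08g0316900, with 92, 88 and 29 counts in HHZ and 0 in 9311, and Os03g0848700, with 94, 78 and 29 against 0, 2 and 1. The limit of 30 counts thus cuts through a continuous range of values, with 12 of the 138 genes having their lowest HHZ count under 40 and 27 genes left out with a lowest count of 20 to 29. When the limits were set on 5 libraries only, the 138 genes were listed again by construction, so only the genes added could fail in the library left out. HHZ replicates 1, 2 and 3 had at least 30 counts at 138 of 143, 138 of 143 and 138 of 151 genes listed without them. The genes that failed still had at least 5, 14 and 10 counts there, and none was at 3 counts or fewer. Without 9311 replicates 1, 2 and 3, the lists held 147, 144 and 144 genes, with up to 9, 19 and 19 counts in the library left out.

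The genes differed in how steady they were within HHZ, a property on which the limits bear only through the minimum of 30 counts. The median coefficient of variation over the 3 HHZ libraries was 21.2% for the 138 genes and 14.7% for the 18526 other genes reaching 30 counts throughout HHZ, whose counts were higher. The highest HHZ library exceeded the lowest by over 2-fold for 32 of the 138 genes (23.2%) and for 15.1% of the others, and by over 3-fold for 11 (7.97%) and 5.94%. The depth of counts was not matched in this comparison. HHZ replicate 3 was the lowest library for 65 of the 138 genes (47.1%) and the highest for 43 (31.2%), against 40.3% and 39.5% of the other genes. The median log2 difference of replicate 3 from the mean of replicates 1 and 2 was -0.11 for the 138 genes (quartiles -0.40 and 0.28) and -0.01 for the others (quartiles -0.26 and 0.27). The quartiles of both sets of genes thus overlapped widely.

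Os12g0579450 was the most variable of the 138 genes, with 75, 36 and 295 counts in HHZ and 0 in every 9311 library. Os04g0369000 had 183, 997 and 401 counts in HHZ and 1, 0 and 0 in 9311, and the next gene in the table, Os04g0369066, had 200, 744 and 309 against 0. Both were highest in HHZ replicate 2. Os05g0128900 had 1392, 493 and 321 counts in HHZ and 0 in 9311, and Os12g0505800 had 318, 106 and 72 against 0, both highest in replicate 1. Os02g0590400 had 404, 736 and 1342 counts in HHZ, Os09g0564600 122, 62 and 279, and Os09g0354100 123, 157 and 472, all highest in replicate 3. Os09g0354100 was seen with 1 count in each 9311 library, and the other 2 were at 0. Os10g0180800 had 87, 224 and 41 counts, Os01g0944100 330, 90 and 321, and Os04g0117300 107, 47 and 149. In CPM, of these 11 genes with over 3-fold differences, 6 were highest in replicate 3, 3 in replicate 2 and 2 in replicate 1. These genes thus did not all have the same highest library. The same split was not taken for the other genes, so nothing is read from it about a library. At the other end, 30 of the 138 genes differed by less than 1.2-fold within HHZ, for example Os08g0390600, with 42, 44 and 41 counts, and Os09g0327575, with 227, 244 and 218.

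**Figure D2:**
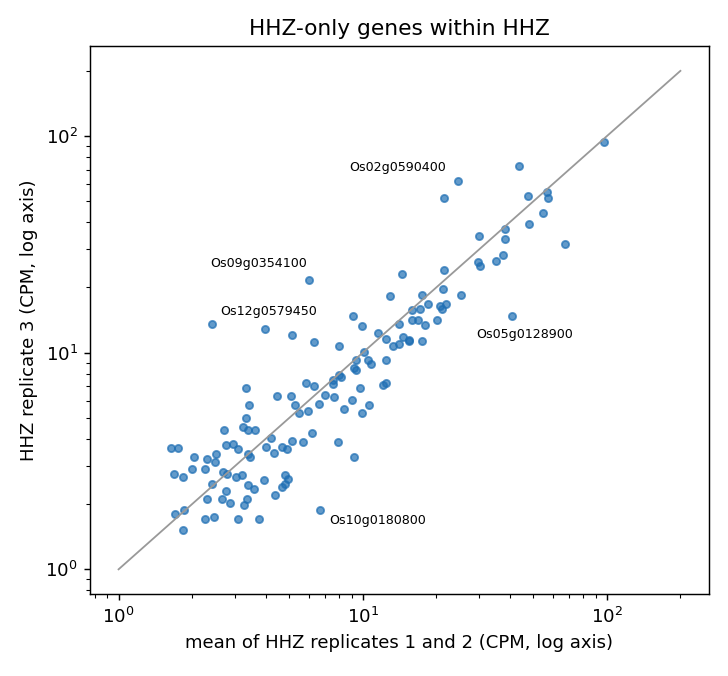
Expression in HHZ replicate 3 against the mean of HHZ replicates 1 and 2 for the 138 genes, both in CPM on log axes, with a line of equal values. Most genes lie along the line with a median log2 difference of -0.11, and named genes such as Os12g0579450 (75, 36 and 295 counts) and Os05g0128900 (1392, 493 and 321 counts) lie far from it.

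The genes were spread over all 12 chromosomes but unevenly. Chromosome 8 held 25, chromosome 11 held 23, chromosome 1 held 22 and chromosome 12 held 15, while chromosome 7 held 2, chromosome 6 held 3, chromosome 2 held 4 and chromosome 3 held 5. Chromosomes 4, 5 and 9 held 11 each and chromosome 10 held 6. Set against the genes of each chromosome reaching 30 counts throughout HHZ, there were 2.38 per 100 on chromosome 11, 2.06 on chromosome 8 and 1.49 on chromosome 12, against 0.740 per 100 in all. Chromosome 9 was above that value too, with 1.11 per 100. Chromosome 1, with 0.818 per 100, was close to the value over all chromosomes, and the lowest were chromosomes 7 (0.142), 2 (0.182), 3 (0.197) and 6 (0.204). Chromosomes 8, 11 and 12 together held 45.7% of the 138 genes and 17.1% of the genes reaching 30 counts throughout HHZ. They were put together for having the highest values, and 32.0% of the 128 genes counted in 9311 only lay on them.

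The 128 genes counted in 9311 only were also frequent on chromosome 11 (23 genes, 2.40 per 100 genes reaching 30 counts throughout 9311), and 14 of them lay on chromosome 8. These 128 genes differed in count from the 138 on chromosome 7, with 16 against 2, and on chromosome 12, with 4 against 15. Neither difference was tested, since neighbouring genes are not independent. Within chromosomes, the span of table order that the 138 genes took up differed. On chromosome 8 all 25 lay between Os08g0145501 and Os08g0422800, the 316th and the 1462nd of its 2438 genes in table order. On chromosome 12 all but 1, Os12g0121200, lay between Os12g0505800 and Os12g0610950, the 1305th and the 1837th of 2045 genes. On chromosome 11, by contrast, the genes ran from position 144 to 2148 of 2273, and on chromosome 9 from 153 to 1921 of 1992. The share of all genes reaching 30 counts throughout HHZ within these spans was not taken.

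**Figure D3:**
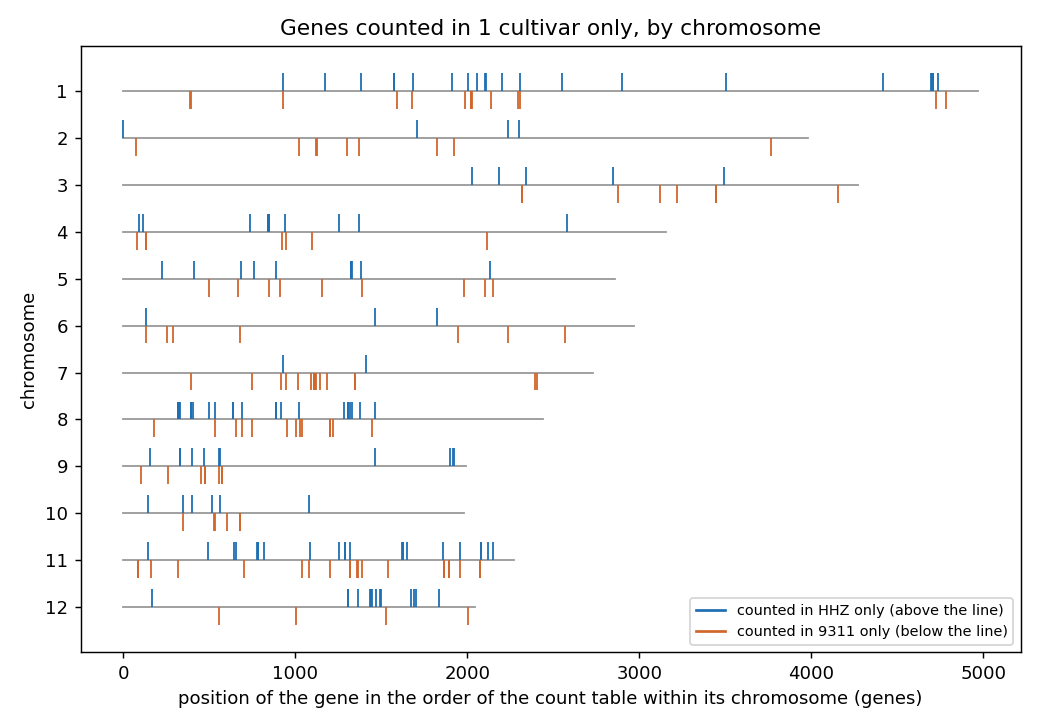
Position of the 138 genes counted in HHZ only (blue, above each line) and the 128 genes counted in 9311 only (orange, below) along the 12 chromosomes, with the horizontal axis giving the order of genes in the count table, in genes. Chromosomes 8 and 11 hold 25 and 23 of the blue marks, and chromosome 7 holds 2 blue and 16 orange marks.

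Of the 138 genes, 31 (22.5%) had an identifier that does not end in 00, which marks a gene set between those of the regular steps of the numbering. This was so for 16.4% of the genes counted in 9311 only and for 6.03% of the 18649 numbered genes reaching 30 counts throughout HHZ, and for 17.9% of all numbered genes. The share among the 138 genes was thus above that of the genes reaching 30 counts and nearer to that of the whole table. The genes reaching 30 counts include the 138 and had a higher median CPM, and the depth of counts was not matched. Examples are Os06g0347966 and Os10g0330825, whose counts are given with the 20 highest genes.

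A total of 32 of the 138 genes (23.2%) lay in the next row to another of them, in 13 pairs and 2 runs of 3. The corresponding number among the 128 genes counted in 9311 only was 29 (22.7%). When genes under 30 counts in any HHZ library were passed over, 45 of the 138 genes (32.6%) lay in 19 runs, 13 of 2 genes, 5 of 3 and 1 of 4. Of the 17 pairs of genes in adjoining rows, 3 had the same highest HHZ library, against 36.9% of other adjoining pairs reaching 30 counts throughout HHZ. The longest rows of genes with at most 3 counts in every 9311 library around one of the 138 held 11 genes, and 28 of the 115 such stretches held a single gene. Each stretch of 11 held only 1 of the 138 genes. In these stretches, 9 and 10 of the 11 rows had at most 3 counts in all 6 libraries, HHZ included.

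The run of 4 lay near the end of chromosome 1. Os01g0942900, whose counts are given above, was followed by Os01g0943800 with 397, 340 and 306 counts in HHZ, Os01g0944000 with 839, 904 and 611, and Os01g0944100 with 330, 90 and 321. All 4 were at 0 in every 9311 library, and the 6 rows between them were at 0 in both cultivars. The next row was Os01g0944200, which had 11623, 9880 and 8799 counts in HHZ and 6, 1 and 0 in 9311. It missed the limits by its 6 counts in 9311 replicate 1 and had more counts in HHZ than any of the 138 genes (this gene was picked out after its values were seen). The row before the run, Os01g0942300, had 56, 85 and 333 counts in HHZ and 32, 32 and 36 in 9311, a log2 difference (HHZ minus 9311) of 2.00 (SE 0.716) that was not called (adjusted p = 0.175, edgeR's quasi-likelihood test).

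On chromosome 5, Os05g0369300 had 235, 218 and 149 counts in HHZ, Os05g0369500 43, 52 and 72, and Os05g0369700 76, 91 and 51, and all were at 0 in 9311. The following row, Os05g0369800, had 18, 15 and 11 counts in HHZ and 0 in 9311. Os05g0370100 had 203, 185 and 189 against 0, 0 and 4, just outside the limit. Between them, Os05g0369900 had 46, 83 and 69 counts in HHZ and 0, 7 and 5 in 9311. It was called higher in HHZ (log2 difference 3.72, SE 0.766, adjusted p = 0.0386 in edgeR). Also between them, Os05g0370000 had 80, 72 and 57 counts in HHZ and 95, 89 and 97 in 9311, a log2 difference of -0.70 that was not called (SE 0.211, adjusted p = 0.120 in edgeR). Every 9311 library was above every HHZ library at this gene, which lay before Os05g0370200 with 87, 169 and 115 counts in HHZ and 0 in 9311.

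On chromosome 8, Os08g0145501 had 76, 76 and 43 counts in HHZ and 0 in 9311. Os08g0145600 had 443, 538 and 346 against 0, 1 and 0, and Os08g0146001 had 351, 325 and 258 against 0. A few rows on came Os08g0149000, with 177, 172 and 162 counts in HHZ and 0, 1 and 1 in 9311, Os08g0149100, with 67, 82 and 59 against 0, 1 and 1, and Os08g0150200, with 136, 79 and 80 against 0. Some genes between and beside these runs were counted in both cultivars, while others, such as Os08g0147001 directly after the first run, were at 0 in every library. Os08g0144400 was higher in HHZ (1824, 2017 and 1727 counts against 736, 706 and 688, log2 difference 1.12, SE 0.0984, adjusted p = 0.00138 in edgeR). Os08g0148600 was also higher in HHZ (643, 564 and 582 against 81, 82 and 45, log2 difference 2.86, SE 0.211, adjusted p = 0.000672 in edgeR), while Os08g0148300 was not called (141, 202 and 177 against 208, 213 and 195, adjusted p = 0.168 in edgeR). Also on chromosome 8, the strongly counted Os08g0263300 was followed by Os08g0263400, with 84, 99 and 56 counts in HHZ and 0 in 9311.

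**Figure D4:**
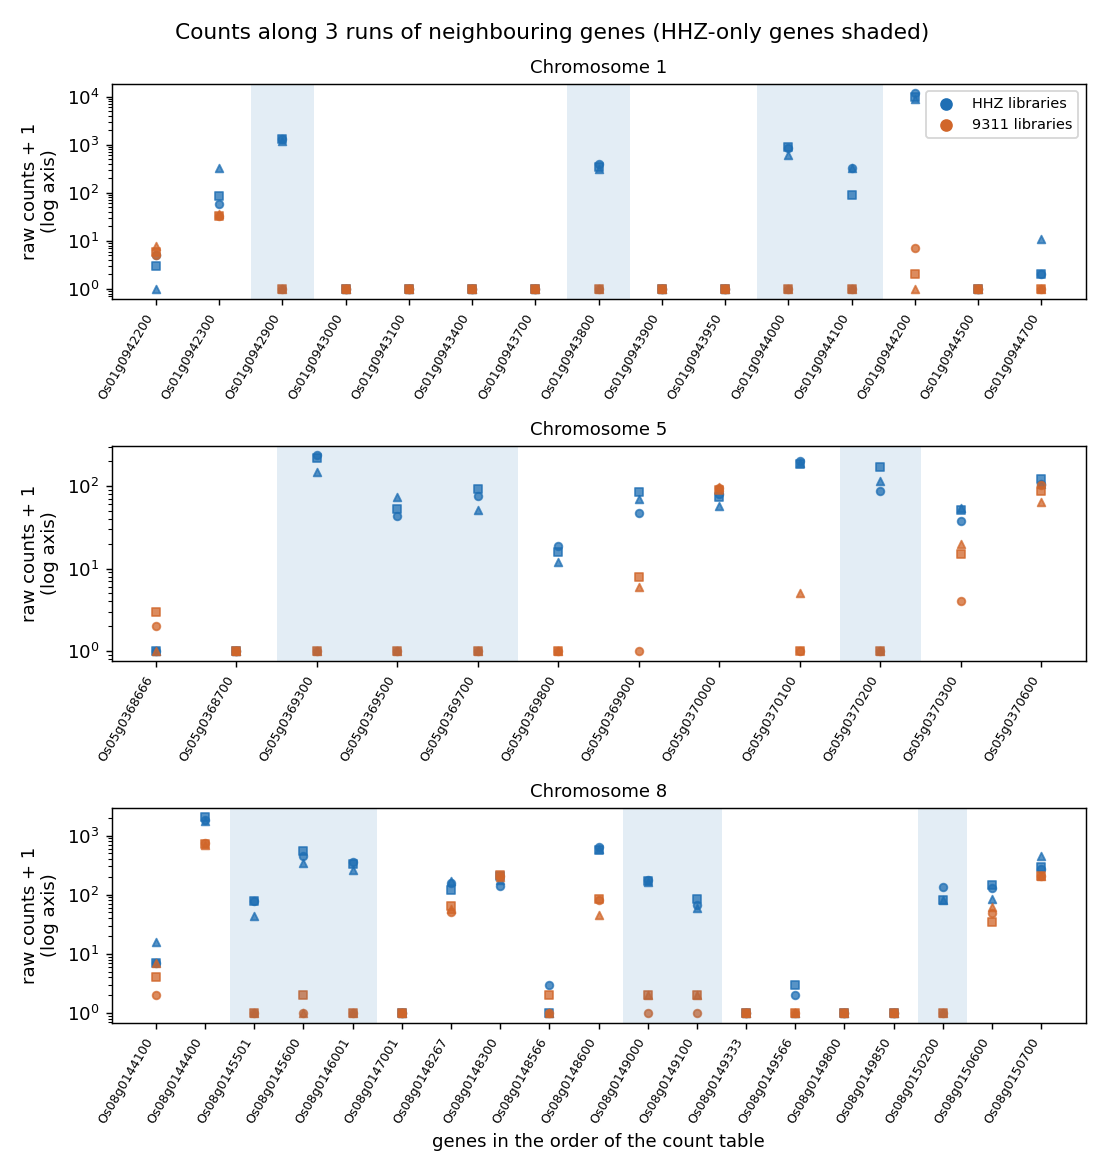
Raw counts plus 1 on a log axis for genes in table order along stretches of chromosomes 1, 5 and 8, 1 point per library, with HHZ in blue and 9311 in orange and genes counted in HHZ only shaded (circles, squares and triangles are replicates 1, 2 and 3). On chromosome 1, Os01g0944200 (8799 to 11623 counts in HHZ, 0 to 6 in 9311) lies beside the shaded genes, and on chromosome 5, Os05g0370000 has 57 to 97 counts in both cultivars.

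Further runs that pass over genes with few counts lay on chromosomes 11 and 12. Os11g0569600 had 210, 290 and 192 counts in HHZ, Os11g0569800 87, 130 and 52, and Os11g0570000 341, 377 and 247, all at 0 in 9311, with Os11g0569733 between them at 15, 26 and 29 counts in HHZ and 6, 15 and 6 in 9311. Os12g0539750 was followed by Os12g0539333, with 175, 130 and 126 counts in HHZ, and Os12g0540000, with 85, 193 and 117, both at 0 in 9311. The same stretch held a gene called in the opposite direction, Os12g0540200, with 213, 259 and 270 counts in HHZ and 556, 496 and 449 in 9311 (log2 difference -1.27, SE 0.141, adjusted p = 0.00373 in edgeR).

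The genes directly before and after the 138 genes were chosen by position only, apart from having failed the limits, and their difference between the cultivars could be tested. There were 235 such genes, of which 118 (50.2%) had over 3 counts in at least 1 library of each cultivar, against 67.3% of the 35528 other numbered genes. At most 3 counts in every 9311 library, with more in HHZ, were found for 28 (11.9%), against 3.21%, and 82 (34.9%) had at most 3 counts in every library, against 27.1%. Thus genes with hardly any counts in 9311 alone made up a larger share beside the 138 genes than elsewhere, and genes counted in both cultivars a smaller one.

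Of the 235 genes, 120 had enough counts to be tested with edgeR, and 32 of them (26.7%) were called higher in HHZ at an adjusted p-value under 0.05, where 3.26% of all 22554 genes tested were. Another 12 (10.0%) were called higher in 9311, where 3.25% of all genes were. The median log2 difference of the 120 genes was 0.29, against 0.01 over all genes tested. The cultivar difference beside the 138 genes thus went in both directions, more often toward HHZ. Of the 107 tested neighbours with over 3 counts in at least 1 library of each cultivar, 24 (22.4%) were called higher in HHZ and 7 (6.54%) higher in 9311, against 2.36% and 2.40% of all such genes. The 24 still included genes nearly absent from 9311, such as Os01g0553600 (4, 0 and 0 counts there) and Os05g0370100 (0, 0 and 4). When each of the 6 libraries had to reach 10 counts, 82 neighbours were left to test. Of these, 12 (14.6%) were called higher in HHZ and 5 (6.10%) higher in 9311, against 1.43% and 1.37% of all genes so filtered. Without HHZ replicate 2, 20 of 121 neighbours (16.5%) were called higher in HHZ and 9 (7.44%) higher in 9311, where 1.64% and 1.68% of all genes were. Reads that overlapping neighbours share were not separated, and their part in these counts was not tested.

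The share of called genes was lower farther away in the table, though not at every step for those higher in 9311. At 2 rows from the nearest of the 138 genes, 20 of 125 genes were called higher in HHZ and 16 (12.8%) higher in 9311. At 3 to 5 rows, 8.24% and 7.14% of 364 genes were called, and at 6 to 10 rows 7.39% and 8.57% of 595. These shares leave out the 138 genes but not the 128 counted in 9311 only, which by itself lowers the share toward HHZ, so no direction is read from the farther rows. At 11 to 20 rows, 4.13% and 7.11% of 1041 genes were called, and beyond 20 rows 2.13% and 2.74% of 20117.

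**Figure D5:**
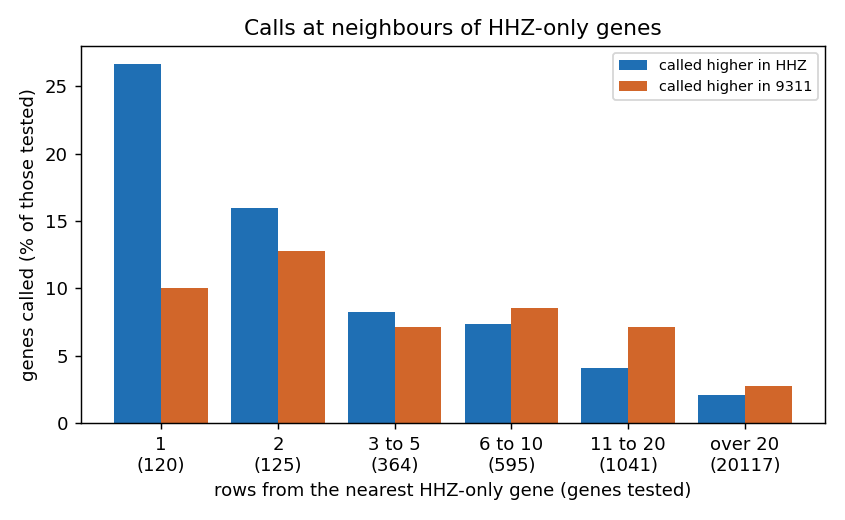
Share of tested genes called higher in HHZ (blue) or higher in 9311 (orange) at an adjusted p-value under 0.05 in edgeR, in percent, by the distance in table rows to the nearest of the 138 genes, with the number of genes tested in brackets. The blue bar falls from 26.7% in the next row to 2.13% beyond 20 rows, and the orange bar from 10.0% to 2.74%.

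Among the neighbours with the clearest differences in favour of HHZ, Os12g0516300 had 503, 432 and 405 counts in HHZ and 13, 7 and 13 in 9311 (log2 difference 5.06, SE 0.273, adjusted p = 0.000233 in edgeR). It lay beside Os12g0516200, one of the 138 genes, with 711, 245 and 358 counts in HHZ and 2, 0 and 1 in 9311. Os01g0564300 had 4982, 7192 and 4228 counts in HHZ and 49, 79 and 92 in 9311 (log2 difference 5.92, SE 0.375, adjusted p = 0.000393 in edgeR), beside Os01g0564400 with 171, 209 and 168 against 3, 3 and 0. In both pairs the neighbour kept a low but clear count in 9311. Os11g0668300 had 1199, 896 and 767 counts in HHZ and 17, 7 and 7 in 9311 (log2 difference 6.27, SE 0.346, adjusted p = 0.000253 in edgeR), beside the pair Os11g0667700 (376, 434 and 245 against 0, 3 and 0) and Os11g0668100 (381, 335 and 249 against 0).

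In the opposite direction, 4 of the 235 genes directly beside the 138 genes were counted in 9311 only. Os06g0118600 had 838, 804 and 691 counts in 9311 and 0 in HHZ, beside Os06g0118301 with 140, 154 and 243 counts in HHZ and 0 in 9311. Os01g0602200 had 454, 584 and 530 counts in 9311 and 0, 2 and 0 in HHZ, beside Os01g0601700 with 45, 72 and 74 counts in HHZ. At these places each cultivar thus had counts at a gene where the other had hardly any. Os11g0485900 had 187, 182 and 108 counts in 9311 and 0 in HHZ, beside Os11g0485500 with 167, 296 and 287 in HHZ and 0 in 9311. Os10g0166300 had 55, 48 and 110 counts in 9311 and 0 in HHZ, beside Os10g0165400 with 73, 87 and 72 in HHZ and 1, 0 and 0 in 9311. Among the 1078 other genes within 5 rows of the 138 genes, 16 were counted in 9311 only. Over all 35667 numbered genes there were 128 such genes, and the difference was not tested.

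For the 138 genes themselves, edgeR called 137 higher in HHZ, beside 3.26% of all genes tested. This follows from how they were chosen. The gene that was not called was Os12g0579450 (adjusted p = 0.0591 in edgeR), the most variable of the 138 genes within HHZ.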

How the data were processed

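The authors sequenced root RNA, trimmed adaptors, aligned the reads to IRGSP-1.0 with STAR and the Ensembl Plants annotation, and deposited the raw counts for each gene and library, neither normalized nor pooled. The submitters' processing notes name STAR 2.5.3a, while the methods of the paper name another release. The annotation release and the strand setting are not given in the sources used here.

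Genes were selected on the deposited counts (at most 3 in every 9311 library, at least 30 in every HHZ library). The limits, the lists and the tests were chosen with earlier results of these data known. CPM used TMM scaling from edgeR 4.0.16 (R 4.3.3), and 3 counts correspond to at most 0.175 CPM in 9311. All 22554 genes passing filterByExpr (minimum count 10) were tested with edgeR's quasi-likelihood test, cultivar as the only term, Benjamini-Hochberg adjustment over all of them and a threshold of 0.05. The fit was also run on simulated counts with known changes. The SE is the log2 difference over the square root of F. DESeq2 1.42.0, other scalings, filters, limits, replicate blocks and single libraries left out were alternatives. Neighbours were taken in table order among 35667 numbered identifiers, of which 99.0% ascend. Named genes came from the 20 with the highest mean CPM in HHZ, runs of 3 or more with tested neighbours, the 5 genes nearest each limit on either side, and those with the largest sums in 9311. The variable genes, the other neighbours and the 4 genes counted in 9311 only were picked after their values were seen. Symbols were sought in a RefSeq gene table (ASM3414082v1, 39387 genes). Intervals cover counting error only.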

Additional observations from a re-analysis of the deposited data

How the results depend on the processing

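The number of genes counted in HHZ only was 138. It was 73 with at least 100 counts and 230 with at least 10 counts in every HHZ library, and 143 to 151 when a library was left out of the limits. The median HHZ value of 7.04 CPM was 6.32 with 0 counts in 9311, 6.72 with at most 10 counts there, 14.1 and 2.99 with at least 100 and at least 10 counts in HHZ, 7.43 with limits on CPM, 7.31 with library totals only and 5.97 to 7.41 without a library. The 32 genes in adjoining rows became 15 with 0 counts in 9311, and 10 and 55 with at least 100 and at least 10 counts in HHZ. With library totals only, the log2 difference of HHZ replicate 3 was -0.29, with -0.19 at the other genes.

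The 44 called neighbours (32 and 12 of 120) became 17 when all 6 libraries had to hold at least 10 counts, 136 within 5 rows, 73 among the next genes tested, and 29 to 54 without a library, the lowest without HHZ replicate 2. DESeq2 called 64 of 147. The neighbours with over 3 counts in both cultivars were set apart only after seeing the data. Over all genes, the 735 called higher in HHZ and 733 higher in 9311 became 1409 and 1476 with DESeq2, 287 and 276 with at least 10 counts throughout, 236 and 234 with the replicate block, and 376 to 1133 and 385 to 1591 without a library, the most without HHZ replicate 3. The share of neighbours called was above that of all genes in each of these settings and in each direction. Replicate numbers did not pair the libraries (correlations of deviations -0.117, 0.0846 and -0.126). With the replicate block, 26 neighbours and 69 of the 138 genes were called, in a fit with fewer degrees of freedom. Without a library, 132 to 138 of the 138 genes were called. The filter on all 6 libraries leaves none of the 138 genes to test. Beyond what a limit or filter removes, the causes were not tested.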
